A study of Mus musculus with 6 samples.

Results

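The genes described here mark the extraembryonic endoderm of the early mouse embryo, that is the primitive endoderm and the visceral and parietal endoderm that come from it. They are 33 genes chosen by name: transcription factors, basement membrane components, secreted carrier proteins, endocytic receptors and a few surface and secreted proteins. Of the 33 genes, 32 had a probe set that the platform annotation assigns to a single gene, with 72 such probe sets in all, out of 34958 single-gene probe sets for 18194 genes on the array. Trf, which encodes transferrin, shares its probe set with another gene in the annotation and is not given a value. Expression was measured on 6 Affymetrix mouse arrays in double-knockout embryonic stem cells (DKO; Gsk-3a-/-; Gsk-3b-/-), which lack the kinases Gsk-3a and Gsk-3b, and in wild-type E14K cells, with 3 arrays per genotype. Cells of both genotypes were kept feeder-free on gelatin with 15% serum and leukaemia inhibitory factor at 1000 units/ml. The labels do not say whether replicates were separate cultures or how many clones the DKO cells came from, and the p-values below therefore reflect the spread among these samples only, possibly a technical one. An effect of losing Gsk-3 and any other difference between the cell lines cannot be told apart.

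Primitive endoderm arises beside the epiblast in the blastocyst, under FGF signalling, and is specified by Gata6 and Gata4 with Sox7 and Sox17. It lays down a laminin and collagen IV basement membrane and then splits into parietal endoderm, which makes large amounts of that matrix, and visceral endoderm, which takes up maternal nutrients through the receptors megalin and cubilin and secretes serum proteins such as alpha-fetoprotein and transthyretin. Embryonic stem cell cultures in serum are known to hold some cells that enter this lineage spontaneously.

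Values are log2 intensities. A probe set was tested if it reached a log2 intensity of 4 (an intensity of 16) on at least 3 of the 6 arrays, and "passed" means an adjusted p under 0.05 in limma over all 20841 tested probe sets. Median intensities were 10 to 11 on every array. Replicate 3 differed from the others in its hybridisation controls: the mean over 9 spike-in probe sets was 9.50 for the DKO array and 9.91 for the wild-type array of that number, and 1.73 to 1.85 on the other 4 arrays. The signal at the 3 end over that at the 5 end of housekeeping control probe sets was 2.32, 2.44 and 1.83 log2 units on the DKO arrays and 2.30, 2.00 and 1.64 on the wild-type arrays. Gsk3a read 7.18, 7.08 and 6.04 on the DKO arrays against 8.65, 7.89 and 7.90 on the wild-type arrays (adjusted p = 0.0942, and 0.00646 with the replicate number as a block), and the brightest probe set of Gsk3b differed by -0.21 (adjusted p = 0.832). Where these probe sets lie relative to the deletions is not known here, so they do not settle the labels. The 10 pluripotent cell markers had summed intensities of 27104 to 29470 on the DKO arrays and 26415 to 28527 on the wild-type arrays, and none passed.

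The transcription factors and matrix genes lay above the filter on every array of their brightest probe set, apart from Foxa2 on wild-type replicate 3. The secreted serum protein genes were under it on all or most arrays in wild-type cells, apart from Apoe and Apom. Of the 32 genes, 27 had a tested probe set (47 probe sets in all). The 5 others were Afp (alpha-fetoprotein), Ttr (transthyretin, a thyroid hormone and retinol carrier), the apolipoprotein genes Apoa1 and Apob, and Rbp4, the retinol-binding protein of plasma. The 5 probe sets of Afp stayed between 1.58 and 2.58 on the DKO arrays and between 1.00 and 2.81 on the wild-type arrays. Ttr had 4 probe sets, which lay between 1.00 and 2.81 on the DKO arrays and between 1.58 and 4.17 on the wild-type arrays. One read 1.58, 2.00 and 1.58 in DKO cells and 4.17, 3.70 and 2.32 in wild-type cells. Another read 1.58 on each DKO array and 3.81, 3.00 and 2.00 in wild-type cells. In the remaining ones the genotypes overlapped, and none was tested. Apoa1 lay at or below 3.17, Apob at or below 2.32 and Rbp4 at or below 4.39 on every array. Afp and Ttr, the serum protein genes most used to mark visceral endoderm, did not reach the filter. Among other cell types, 6 of 11 trophoblast markers were tested, and Elf5, Gata3, Hand1, Ascl2 and Esx1 stayed under the filter. Of 10 mesendoderm and mesoderm markers 4 were tested, and Gsc, Mesp1, Tbx6, Kdr, Foxf1 and Hand1 stayed under it. Of 11 fibroblast markers 6 were tested, and Col3a1, Dcn, Lum, Pdgfrb and Postn stayed under it. Summed over the tested genes, trophoblast markers gave intensities of 4975 to 7779 on the DKO arrays and 4343 to 7859 on the wild-type arrays, fibroblast markers 4962 to 5803 and 5041 to 6512, and mesendoderm markers 581 to 692 and 425 to 544. Their part in the results below was not tested.

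Read on the brightest tested probe set of each gene, 2 of the 27 tested endoderm genes passed as higher in DKO cells, and none as lower. These were the fetuin genes Fetub and Ahsg, which met the filter through the DKO arrays alone. Over all 10496 tested genes, 1.64% passed as higher and 2.5% as lower. By probe set 3 of 47 rose, the third being a probe set of Hnf4a, against 1.31% of all probe sets, and none fell, against 1.93%. Replicate numbers 1 to 3 come from the titles, and over all tested probe sets arrays of the same number deviated together from their genotype means. Among the endoderm genes the replicate 3 arrays often moved apart. In 15 of 27 wild-type replicate 3 was the lowest and DKO replicate 3 the highest of its genotype (4.7% of all genes). With the replicate number as a block, 5 genes passed as higher (Hnf4a, Apom, Ahsg, Fetub and Cited1; 5.07% of all genes) and 2 as lower (Lrp2 and Thbd; 5.63% of all genes). Limma takes part of each spread from the other probe sets, so a pass with the block does not show that the pairs agreed in size. By pair Hnf4a differed by 1.00, 1.76 and 5.08, and Lrp2 by -2.67, -3.31 and -0.25. The median log2 difference over the 27 tested genes was 0.21, with 17 of 27 above 0, and over all tested genes it was -0.0025, with 49.7% above 0. Leaving out DKO replicates 1, 2 and 3 in turn, 0, 1 and 2 of the 27 genes passed as higher (0.753%, 1.05% and 1.27% of all genes) and 0, 0 and 1 as lower (1%, 1.36% and 1.92%). Leaving out wild-type replicates 1, 2 and 3 in turn, 4, 1 and 2 passed as higher (1.71%, 0.848% and 1.48%) and 0, 1 and 3 as lower (1.86%, 1.2% and 2.03%). All 3 DKO arrays lay above all 3 wild-type arrays in 6 of the 27 genes (8.49% of all genes) and below them in 2 (10.4% of all genes).

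The transcription factors were expressed in both genotypes, and in each of them replicate 3 was the lowest of the wild-type arrays. Gata6, the factor that starts the primitive endoderm programme, read 8.82, 8.26 and 8.94 on the DKO arrays, against 8.22, 8.19 and 6.46 on the wild-type arrays. Gata4, a GATA factor that acts with and after Gata6, read 9.51, 8.82 and 9.87 in DKO cells and 9.56, 8.47 and 7.32 in wild-type cells. On these probe sets the DKO arrays of Gata6 lay above all wild-type arrays by a narrow margin, and those of Gata4 overlapped them. On a dimmer tested probe set of Gata6 the genotypes overlapped too, with a difference of 0.52 (limma adjusted p = 0.654). Sox17, a SOX factor of endoderm, read 9.22, 9.33 and 9.86 in DKO cells and 9.40, 8.59 and 6.83 in wild-type cells. Its relative Sox7 read 8.23, 8.55 and 9.95 in DKO cells and 9.73, 9.46 and 8.61 in wild-type cells. On these brightest probe sets the first replicates of the SOX genes were thus higher in wild-type cells, and the third were higher in DKO cells. The replicate 1 difference of Sox17 was only -0.18 there, and it was 1.34 on the dimmer probe set described below. Foxa2, a forkhead factor of visceral endoderm and later of definitive endoderm, read 6.73, 5.81 and 6.25 in DKO cells and 5.75, 5.55 and 3.70 in wild-type cells. Foxq1, a forkhead factor, read 10.35, 10.53 and 10.93 in DKO cells against 10.65, 10.61 and 9.13 in wild-type cells. By limma, the log2 differences of these 6 factors ran from -0.35 (Sox7, SE 0.47, adjusted p = 0.865) to 1.26 (Foxa2, SE 0.52, adjusted p = 0.33), and none passed. The difference of Gata6 was 1.05 (95% interval -0.0062 to 2.10, adjusted p = 0.387) and that of Gata4 was 0.95 (-0.24 to 2.14, adjusted p = 0.533). A dimmer probe set of Sox17 differed by 1.30 (adjusted p = 0.172) and passed with the replicate number as a block (adjusted p = 0.0154), where 4.31% of all probe sets passed as higher; the brighter probe set did not (adjusted p = 0.175). In RNA from whole cultures, fewer cells of a type and less RNA per cell cannot be told apart.

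**Figure D1:**
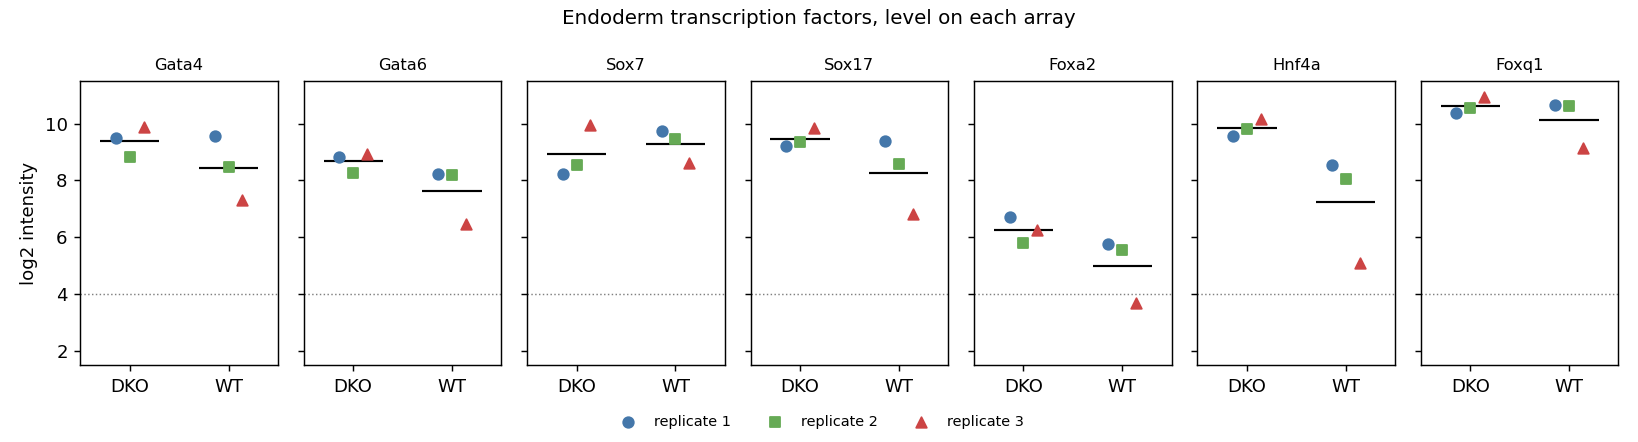
Log2 intensity of 7 endoderm transcription factors on each array, DKO on the left and wild-type (WT) on the right of each panel, with 1 point per array, the marker showing the replicate number, a bar at the mean of 3 arrays and a dotted line at the filter level of 4. Wild-type replicate 3 was the lowest wild-type array in all 7 panels, at 5.09 for Hnf4a and 6.46 for Gata6.

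The genotype difference of the tested genes was larger in replicate 3 than in replicates 1 and 2 by its median, a description that rests on 1 array per genotype. Over replicates 1 and 2 the median log2 difference of the 27 tested genes was -0.11, and in replicate 3 it was 1.34. By pair the medians were -0.08, -0.08 and 1.34, while over all tested genes they were -0.06, 0.07 and -0.03. Within wild-type cells replicate 3 lay below the mean of replicates 1 and 2 by a median of -0.83, and within DKO cells it lay above by 0.51, against 0.017 and 0.027 over all tested genes. Wild-type replicate 3 was the lowest wild-type array in 20 of 27 genes (33.6% of all genes), DKO replicate 3 the highest DKO array in 21 of 27 (35.8% of all genes), and both held in 15 of 27 (4.7% of all genes). These 15 included Gata4, Gata6, Sox7, Sox17, Hnf4a, Dab2, Pdgfra, Cubn and Lrp2.

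A limma model with an interaction of genotype and replicate 3 was run on each probe set. Its replicate 3 arm holds 1 array per genotype, so its spread comes from replicates 1 and 2 alone and the replicate 3 arrays are assumed to vary like them. After adjustment 0 of 20841 probe sets passed, 0% of the background, and the lowest adjusted p of an endoderm probe set was 0.931, so a dependence on replicate 3 was not shown for any single gene. At an unadjusted p under 0.05 there were 27 of 47 endoderm probe sets (57.4%), against 335 of all 20841 (1.61%). Counted by gene these were 14 of 27, each with a more positive difference in replicate 3, against 1.96% of all genes. All 7 transcription factors, Dab2, Pdgfra and the 3 genes of the cubilin and megalin complex were among the 14, with 2 of the 8 matrix genes. The endoderm genes were measured on the same 6 arrays, so a departure of 1 array moves many of them at once, and these unadjusted counts are a description. Hnf4a had the largest interaction of its group, 3.70 (SE 0.56, unadjusted p = 0.000164), and that of Gata6 was 2.14 (SE 0.55, unadjusted p = 0.00478). The median genotype difference in replicate 3 was -0.09 over the 10 pluripotent cell markers and 0.62 over the 6 trophoblast markers. Over replicates 1 and 2 these medians were 0.006 and -0.26. For 4 mesendoderm markers, 6 fibroblast markers and 16 genes for collagen modification and secretion, the medians in replicate 3 were 0.14, 0.35 and 0.18. Over replicates 1 and 2 they were 0.97, 0.19 and -0.07. Replicate 3 as such, regardless of genotype, did not pass for any endoderm probe set, against 0.552% of all probe sets as higher and 0.226% as lower, and 2 of 47 were under 0.05 unadjusted, against 21.4% of all. Opposite shifts of the replicate 3 arrays in the genotypes cancel in this term. These counts therefore do not show that endoderm genes varied less with replicate 3 than other genes. Hybridisation of replicate 3 and whatever else its number stands for cannot be told apart.

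**Figure D2:**
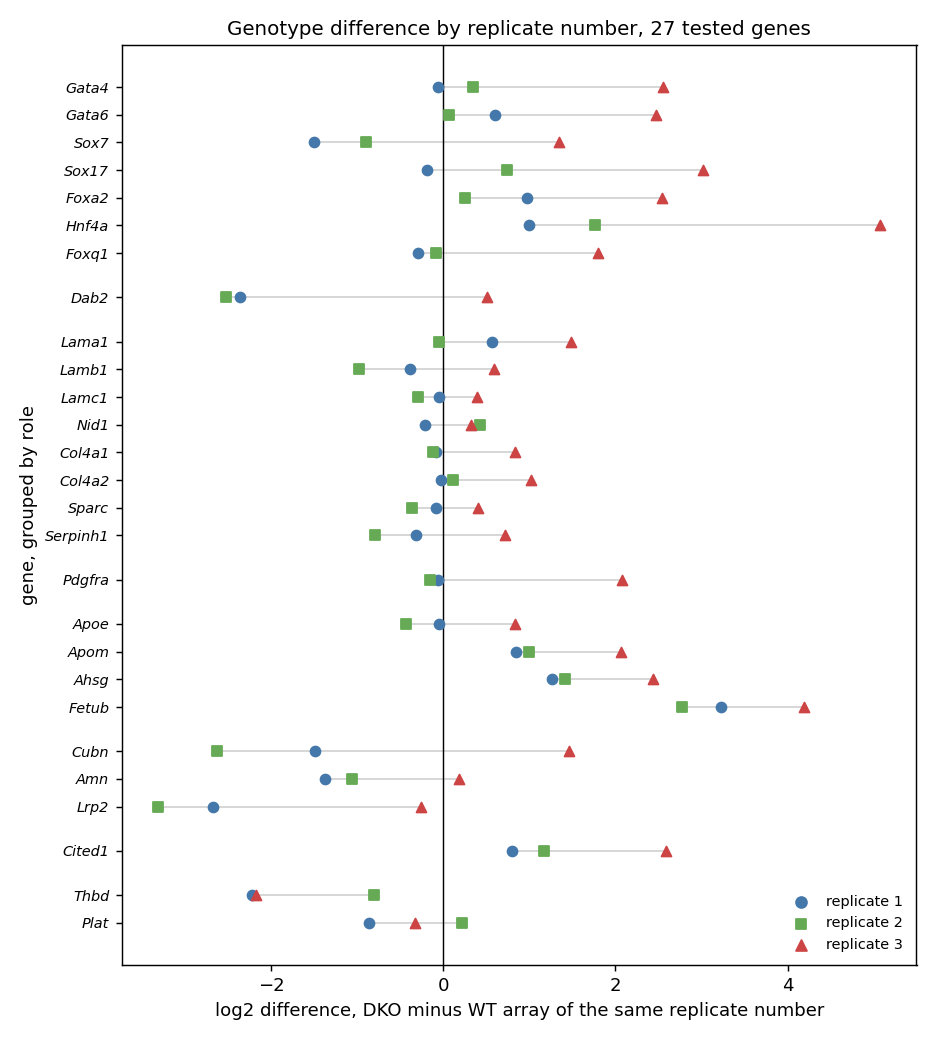
Log2 difference between the DKO and the wild-type (WT) array of the same replicate number for the 27 tested endoderm genes, grouped by role, with 1 point per replicate number and a grey line over their range. Replicate 3 lies to the right of replicates 1 and 2 for 24 of the 27 genes, with a median of 1.34, while replicates 1 and 2 each have a median of -0.08.

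Hnf4a, a nuclear receptor that drives the differentiated programme of visceral endoderm and liver, was the transcription factor with the largest difference. Its brightest probe set read 9.56, 9.80 and 10.17 in DKO cells against 8.56, 8.04 and 5.09 in wild-type cells. Every DKO array lay above every wild-type array, and 1 wild-type array lay far below the others. The log2 difference was 2.61 (SE 0.76, adjusted p = 0.134), 1.38 over replicates 1 and 2 and 5.08 in replicate 3. It passed with the replicate number as a block (adjusted p = 0.0255), without wild-type replicate 3 (difference 1.54, adjusted p = 0.0366) and without wild-type replicate 1 (3.28, adjusted p = 0.042). Its adjusted p ran from 0.0255 to 0.504 over 14 alternatives. A second probe set read 5.39, 7.45 and 7.64 in DKO cells and 4.81, 3.81 and 2.58 in wild-type cells. Its wild-type replicates 2 and 3 lay under the filter. This probe set rose by 3.10 (SE 0.68, adjusted p = 0.0459), and among fits that left out an array it passed only without wild-type replicate 1 (adjusted p = 0.0207 to 0.174 over the 6). It passed under 4 of 13 alternatives (adjusted p = 0.0142 to 0.314), and quantile normalization was not among them (adjusted p = 0.0503). The other 2 probe sets of Hnf4a stayed under the filter. Hnf4a has 2 annotated starts in RefSeq (GRCm38.p6), and the 300 bases around each are shown for this factor with the largest difference. Capitals mark matches on either strand to 4 short motifs: GATAA (the core bound by GATA factors), GTTAAT (the core bound by HNF1), CAAAGTCCA (a site of HNF4) and CTTTGA (a core of Tcf/Lef factors). The HNF4 and Tcf/Lef motifs share the letters CTTTG on opposite strands. The windows lie on the plus strand, at chr2:163506607-163506906 and chr2:163546905-163547204.
Hnf4a upstream start: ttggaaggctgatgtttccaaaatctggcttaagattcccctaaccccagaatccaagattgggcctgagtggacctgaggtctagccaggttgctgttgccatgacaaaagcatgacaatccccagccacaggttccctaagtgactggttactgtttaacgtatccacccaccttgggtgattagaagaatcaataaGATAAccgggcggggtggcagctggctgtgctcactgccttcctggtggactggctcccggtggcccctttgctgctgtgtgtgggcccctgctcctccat
Hnf4a downstream start: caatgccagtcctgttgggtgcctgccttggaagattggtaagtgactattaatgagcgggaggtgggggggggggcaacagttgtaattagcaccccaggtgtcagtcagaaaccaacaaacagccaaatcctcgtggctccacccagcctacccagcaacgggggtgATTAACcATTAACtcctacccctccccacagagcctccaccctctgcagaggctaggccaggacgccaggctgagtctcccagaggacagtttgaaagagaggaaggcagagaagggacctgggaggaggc
The upstream window holds GATAA once, and the downstream window holds GTTAAT in reverse at 2 places, beginning at -81 and -74 relative to the start. Of all 32851 promoter windows of this length, 25.4% hold GATAA, 7.1% GTTAAT, 0.475% CAAAGTCCA and 16% CTTTGA. Of the 33 endoderm genes, 22 matched the table, with 32 windows, of which 7, 6, 0 and 4 held these motifs in the same order.

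None of the 8 basement membrane genes passed, and their log2 differences ran from -0.26 (Lamb1) to 0.67 (Lama1), with a median of 0.098. Lama1, the laminin chain of the early basement membrane, read 11.34, 10.24 and 10.81 in DKO cells and 10.77, 10.28 and 9.33 in wild-type cells (adjusted p = 0.604). Lamc1, the gamma chain it pairs with, averaged 10.55 ± 0.024 in DKO cells and 10.53 ± 0.34 in wild-type cells (SD, n = 3), a difference of 0.015 (95% interval -0.55 to 0.58, limma). For Nid1, which links laminin to collagen IV, the interval was -0.35 to 0.71. Col4a1 and Col4a2, neighbouring genes read in opposite directions that encode the chains of collagen IV, differed by 0.21 and 0.37, with adjusted p-values of 0.874 and 0.735. Sparc, a matrix protein abundant in parietal endoderm, differed by -0.017, and Serpinh1, a chaperone for collagen, by -0.13. The median difference was -0.13 over replicates 1 and 2 and 0.66 in replicate 3, and over the transcription factors it was 0.28 and 2.55. The 2 groups were not tested against each other. The summed intensity of the 8 genes was 18724, 14844 and 19997 on the DKO arrays and 19285, 17441 and 12497 on the wild-type arrays. Pdgfra, the PDGF receptor that marks primitive endoderm, had 3 tested probe sets and none passed, apart from a dimmer one when wild-type replicate 1 was left out (adjusted p = 0.0439). The brightest read 9.92, 9.96 and 10.86 in DKO cells and 9.98, 10.12 and 8.78 in wild-type cells. On it the genotypes differed by -0.11 over replicates 1 and 2 and by 2.08 in replicate 3. On the next brightest these differences were 0.50 and 3.44, and on the dimmest tested one -0.41 and 2.83.

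The genes of nutrient uptake were lower in DKO cells in replicates 1 and 2. Dab2 encodes the adaptor that links megalin to clathrin; Lrp2 is megalin itself, Cubn is cubilin, a receptor for vitamin B12 bound to intrinsic factor and for albumin, and Amn anchors cubilin in the membrane. Lrp2 read 5.81, 5.70 and 7.08 in DKO cells against 8.48, 9.01 and 7.33 in wild-type cells. All DKO arrays lay below all wild-type arrays, but replicate 3 differed by only -0.25. Dab2 read 7.13, 7.06 and 7.74 in DKO cells against 9.49, 9.57 and 7.23 in wild-type cells. Cubn read 7.55, 7.07 and 8.07 in DKO cells and 9.04, 9.69 and 6.60 in wild-type cells. Amn read 4.46, 4.70 and 5.09 in DKO cells and 5.83, 5.75 and 4.91 in wild-type cells. For Dab2, Cubn and Amn the DKO arrays of replicates 1 and 2 lay below the wild-type ones and that of replicate 3 above. Cubn and Amn are given in full after their values were seen.

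Over all 6 arrays none of these 4 genes passed. Lrp2 differed by -2.08 (SE 0.49, adjusted p = 0.0624), and it passed with the replicate number as a block (adjusted p = 0.0228), where its other tested probe set passed too (adjusted p = 0.022; 5.26% of all probe sets passed as lower). It also passed without DKO replicate 3 (adjusted p = 0.0293) and with replicate 3 as a block (adjusted p = 0.0489). In that last fit it was the 1 endoderm gene and probe set that passed as lower, against 3.79% of all genes and 3.09% of all probe sets, while 2 genes and 3 probe sets passed as higher, against 2.75% and 2.26%. Over 14 alternatives its adjusted p ran from 0.00371 to 0.326. Dab2 differed by -1.45 (SE 0.57, adjusted p = 0.305), Cubn by -0.88 (SE 0.69, adjusted p = 0.719) and Amn by -0.75 (SE 0.32, adjusted p = 0.347). Within replicates 1 and 2 alone, Lrp2, Dab2 and Cubn fell by 2.99, 2.44 and 2.06 on the log2 scale, with limma adjusted p-values of 0.00371, 0.00579 and 0.027. They were the 3 of 27 tested genes that passed as lower there, against 1.68% of all genes, and Fetub was the gene that passed as higher, against 1.14%. By probe set these were 7 of 47 (1.24% of all), against 1 that was higher (0.873% of all): 3 of the 4 of Dab2 and both tested ones of Cubn and of Lrp2. The same 3 genes passed as lower when wild-type replicate 3 alone was left out (2.03% of all genes), with adjusted p-values of 0.0132 for Lrp2, 0.00539 for Dab2 and 0.0339 for Cubn.

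The promoters of Lrp2 and Cubn are shown because these receptor genes, both on chromosome 2, were lower together in replicates 1 and 2. They come from RefSeq (GRCm38.p6), lie on the minus strand at chr2:69585980-69586279 and chr2:13491827-13492126, and carry capitals for the same 4 motifs.
Lrp2: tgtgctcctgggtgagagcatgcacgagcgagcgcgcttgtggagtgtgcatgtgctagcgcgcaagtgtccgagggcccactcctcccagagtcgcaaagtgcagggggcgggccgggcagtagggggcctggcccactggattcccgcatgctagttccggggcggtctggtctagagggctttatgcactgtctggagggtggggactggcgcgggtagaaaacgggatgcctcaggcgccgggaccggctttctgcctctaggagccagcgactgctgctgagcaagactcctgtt
Cubn: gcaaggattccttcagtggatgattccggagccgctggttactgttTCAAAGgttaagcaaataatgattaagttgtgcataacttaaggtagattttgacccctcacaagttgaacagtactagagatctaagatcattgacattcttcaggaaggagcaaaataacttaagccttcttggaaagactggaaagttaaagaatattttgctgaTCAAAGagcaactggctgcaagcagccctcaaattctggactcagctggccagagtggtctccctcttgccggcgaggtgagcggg
The Cubn window holds CTTTGA in reverse, beginning at -204 and -36 relative to the start, and the Lrp2 window holds none of the 4 motifs.

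**Figure D3:**
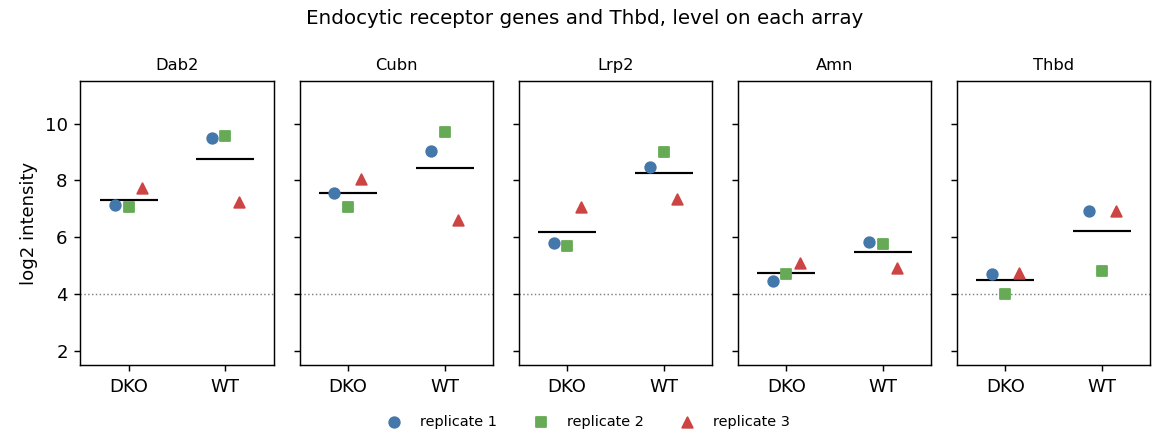
Log2 intensity of Dab2, Cubn, Lrp2, Amn and Thbd on each array, DKO left and wild-type (WT) right, with 1 point per array, a bar at the mean of 3 arrays and a dotted line at the filter level of 4. In replicates 1 and 2 the DKO arrays of Dab2, Cubn, Lrp2 and Amn lie below the wild-type ones, and for Lrp2 the replicate 3 arrays lie 0.25 apart.

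The endocytic genes were also set against the transcription factors of the same array. For each array the median deviation from the 6-array mean was taken over the 7 transcription factors and over Dab2, Cubn, Lrp2 and Amn. The endocytic genes minus the transcription factors gave -1.36, -1.12 and -0.96 on the DKO arrays and 0.86, 1.69 and 1.18 on the wild-type arrays. The DKO arrays were thus lower by -2.22, -2.81 and -2.14 in the 3 pairs. In replicate 3 the endocytic median itself was higher in DKO cells, at -0.10 against -0.51. There the sign came from the transcription factor median, at 0.86 in DKO and -1.69 in wild-type cells. These 4 genes were put together after they were seen to be lower in DKO cells, which fixes the sign of the contrast in replicates 1 and 2. No test is given, and nothing is read from the contrast beyond its values.

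**Figure D4:**
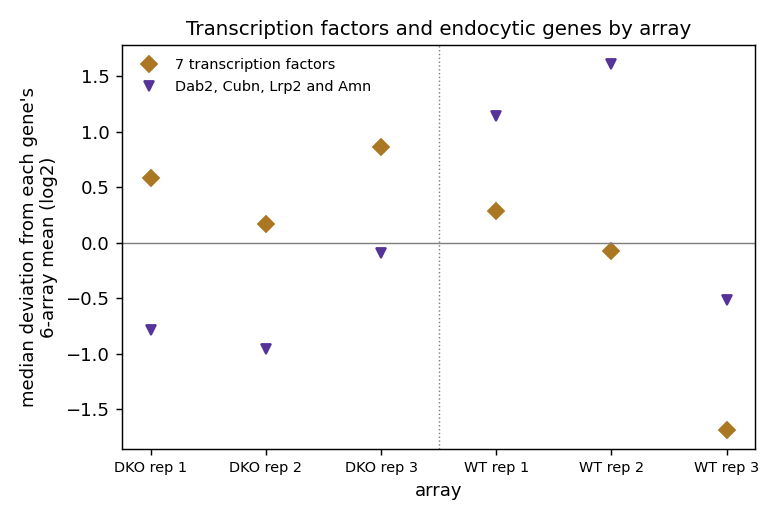
Median deviation of 7 transcription factors (diamonds) and of Dab2, Cubn, Lrp2 and Amn (triangles) from each gene's mean over 6 arrays, on the log2 scale, by array, with DKO on the left and wild-type (WT) on the right of the dotted line. The triangles lie below the diamonds on the 3 DKO arrays, by -1.36 to -0.96, and above them on the 3 wild-type arrays, by 0.86 to 1.69.

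The fetuin genes read higher in DKO cells in each replicate. Fetub encodes fetuin-B, a liver-secreted inhibitor of the protease that hardens the zona pellucida, and Ahsg encodes fetuin-A, a serum protein that binds calcium phosphate. They are neighbours on chromosome 16, with 0 protein-coding genes between them. Fetub read 6.39, 5.36 and 7.36 in DKO cells and 3.17, 2.58 and 3.17 in wild-type cells. Ahsg read 4.58, 4.58 and 5.75 in DKO cells and 3.32, 3.17 and 3.32 in wild-type cells. All wild-type arrays of both genes lay under the filter, which the genes passed through the DKO arrays alone, so a tested fetuin gene had to differ and its fold has only a lower limit: with the wild-type arrays set to the filter level, Fetub was at least 5.17-fold and Ahsg at least 1.97-fold higher in DKO cells. The fitted differences were 3.39 for Fetub (SE 0.46, adjusted p = 0.00457) and 1.70 for Ahsg (SE 0.34, adjusted p = 0.0292). Fetub differed by 3.22, 2.77 and 4.19 in the 3 pairs and Ahsg by 1.26, 1.41 and 2.43. Leaving out DKO replicate 1 ended the call of Fetub (adjusted p = 0.0616). That of Ahsg ended when DKO replicate 1 or 2 or any 1 wild-type array was left out (adjusted p = 0.0527 to 0.121). With no filter on dim probe sets neither passed (adjusted p = 0.107 and 0.182). The promoter windows of both genes are shown as neighbours that both read higher in DKO cells, from RefSeq (GRCm38.p6), plus strand, at chr16:22918132-22918431 for the first of the 2 starts of Fetub and chr16:22891765-22892064 for Ahsg, with the same motifs in capitals.
Fetub: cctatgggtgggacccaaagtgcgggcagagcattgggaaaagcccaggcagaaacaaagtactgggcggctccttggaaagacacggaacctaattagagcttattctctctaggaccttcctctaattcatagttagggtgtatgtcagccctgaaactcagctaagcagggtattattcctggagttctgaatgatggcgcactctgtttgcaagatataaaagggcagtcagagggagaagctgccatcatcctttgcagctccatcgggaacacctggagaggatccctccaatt
Ahsg: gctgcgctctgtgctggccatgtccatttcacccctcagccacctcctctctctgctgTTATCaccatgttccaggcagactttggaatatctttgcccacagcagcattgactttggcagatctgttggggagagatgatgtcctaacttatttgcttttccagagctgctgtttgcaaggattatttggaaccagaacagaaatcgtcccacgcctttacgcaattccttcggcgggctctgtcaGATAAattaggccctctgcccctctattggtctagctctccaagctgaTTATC
The Ahsg window holds GATAA 3 times on either strand, and the Fetub window holds none of the 4 motifs.

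Among the other carrier genes, Apom was higher in DKO cells on all arrays. Apom, an apolipoprotein that carries sphingosine-1-phosphate, read 7.01, 6.46 and 7.35 in DKO cells and 6.17, 5.46 and 5.29 in wild-type cells. The difference of 1.30 (SE 0.33, adjusted p = 0.0807) passed with the replicate number as a block (adjusted p = 0.0137) and without wild-type replicate 1 (adjusted p = 0.0436), and its second probe set differed by 0.84. Apoe, an apolipoprotein of many cell types, read 8.21, 7.42 and 9.06 in DKO cells and 8.26, 7.85 and 8.22 in wild-type cells (difference 0.12, 95% interval -0.77 to 1.01). Cited1, a transcription cofactor, read 7.10, 5.93 and 7.29 in DKO cells and 6.30, 4.75 and 4.70 in wild-type cells. DKO was higher within each replicate number, by 0.79, 1.18 and 2.58, and the difference of 1.52 (SE 0.50, adjusted p = 0.192) passed with the block (adjusted p = 0.016) and without wild-type replicate 1 (adjusted p = 0.0354).

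**Figure D5:**
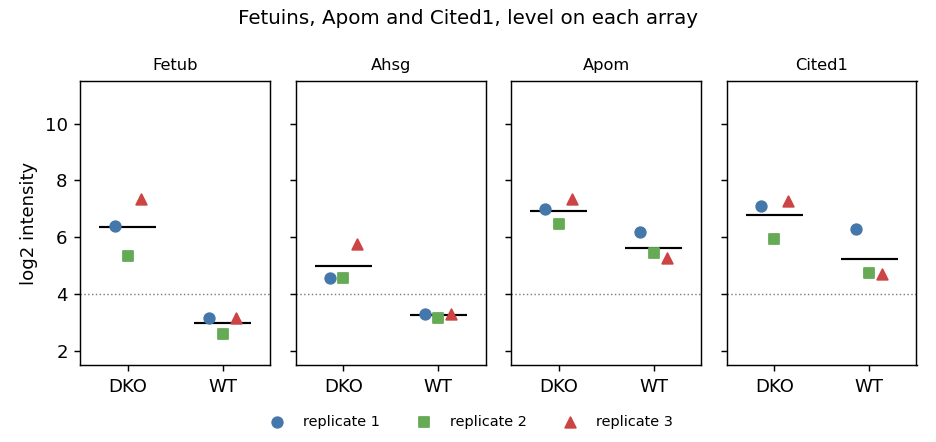
Log2 intensity of Fetub, Ahsg, Apom and Cited1 on each array, DKO left and wild-type (WT) right, with 1 point per array, a bar at the mean of 3 arrays and a dotted line at the filter level of 4. All wild-type arrays of Fetub and Ahsg lie under the dotted line, at 2.58 to 3.32, and all their DKO arrays lie above it, at 4.58 to 7.36.

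Thbd and Plat are known from parietal endoderm. Thbd, the thrombin receptor thrombomodulin, read 4.70, 4.0 and 4.75 in DKO cells and 6.92, 4.81 and 6.93 in wild-type cells. All DKO arrays lay below all wild-type arrays, and wild-type replicate 3 was as high as replicate 1, unlike in the transcription factors. The difference of -1.73 (SE 0.54, adjusted p = 0.166) passed with the replicate number as a block (adjusted p = 0.00504) and without wild-type replicate 2 (-2.44, adjusted p = 0.0111). Plat, the tissue plasminogen activator, differed by -0.32 (SE 0.31, adjusted p = 0.797).

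Of 51 other genes known from extraembryonic endoderm that had a probe set, 35 were tested. Of these Ihh and Stra6 passed as higher (1.64% of all genes), Spink1 as lower (2.5% of all genes) and 32 did not pass, with a median difference of 0.058. With the replicate number as a block 6 passed as higher (5.07% of all genes) and 2 as lower (5.63%). The added ones as higher were Eomes (difference 1.24, adjusted p = 0.00734), Rhox5 (1.49, 0.00673), Ctsc (1.05, 0.027) and Dpp4 (0.90, 0.0367). Mttp (-1.29, 0.0394) was added as lower. Eomes was also among the tested mesendoderm and mesoderm markers above. Ihh, a Hedgehog ligand made by visceral endoderm, read 4.70, 4.52 and 5.21 in DKO cells and 3.17, 3.00 and 2.58 in wild-type cells, at least 1.75-fold higher (adjusted p = 0.00705). It met the filter through the DKO arrays alone, and so had to differ. Stra6, the cell-surface receptor for retinol-binding protein, read 6.48, 5.81 and 8.97 in DKO cells and 4.0, 4.0 and 3.58 in wild-type cells (difference 3.22, SE 0.68, adjusted p = 0.0398, and 0.0607 to 0.154 without DKO replicate 1 or any 1 wild-type array). DKO replicate 3 was its highest array, as for Fetub. Spink1, a trypsin inhibitor, differed by -4.20 (adjusted p = 0.000484). At an unadjusted p under 0.05 the interaction with replicate 3 counted 9 of the 35 (1.96% of all genes), each more positive in replicate 3. The median difference in replicate 3 was 0.82. DKO replicate 3 was the highest DKO array in 18 of the 35 (35.8% of all genes), and wild-type replicate 3 the lowest wild-type array in 23 (33.6% of all genes). Alb, Apoa2, Apoa4, Apoc2, Apoc3, Fgb, Fgg, Vtn and Cer1 were among 16 of the 51 that stayed under the filter.

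Of 14 tested genes of FGF and PDGF signalling none passed on the brightest probe set, with differences from -0.59 to 1.36 and a median of -0.045 (-0.09 over replicates 1 and 2 and 0.05 in replicate 3). The highest was Etv4, a target of FGF signalling, which passed with the replicate number as a block (adjusted p = 0.00521). Fgf4, the ligand of the epiblast, differed by -0.18 and its receptor gene Fgfr2 by -0.59. A dimmer probe set of Pdgfa, a ligand of Pdgfra, rose by 1.37 (adjusted p = 0.0458; when 1 array was left out it passed only without wild-type replicate 3, with 0.0365 to 0.177 over the 6), while its brightest probe set differed by 0.51 without passing (adjusted p = 0.412). Of 16 tested genes for collagen modification and secretion none passed (median -0.03, from -0.57 to 0.94). Their median was -0.07 over replicates 1 and 2 and 0.18 in replicate 3. DKO replicate 3 was the highest DKO array in 10 of these 16 (35.8% of all genes). Over the 6 fibroblast markers the median was 0.16, with 3 above and 3 below 0, and over the 6 trophoblast markers it was 0.033, likewise with 3 above and 3 below. Col1a1, a fibroblast collagen, read 6.71, 6.19 and 6.25 in DKO cells and 8.30, 7.08 and 7.79 in wild-type cells (adjusted p = 0.0805, and 0.00506 with the block), and Cdx2, a trophoblast and posterior embryo factor, rose by 4.09 (adjusted p = 9.71e-05). Their interaction p-values were 0.703 and 0.736 before adjustment.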

How the data were processed

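The authors deposited a table of intensity values, whole numbers from 1 to 12861 with no stated scale, which were taken as linear. Per the submitters' processing notes, limma 2.16.5, R 2.8.0, GCRMA 2.14.1 and GCOS were used, in roles not named. No source used here gives a genome build. Per the labels' protocols, 25 ng of RNA were amplified and biotin-labelled. The deposited values were converted to log2 with no pseudocount, and rounding makes low values coarse. Of 45101 probe sets, 34958 had 1 gene, 932 several and 9211 none; symbols were updated through RefSeq (34754 matched). Array controls (64) and dim probe sets were left out. The genotypes were compared in limma 3.58.1 (R 4.3.3; two-sided, Benjamini-Hochberg over 20841 probe sets), without the replicate number. A gene was read on its brightest tested probe set. Over all tested probe sets same-numbered arrays deviated together (correlations 0.427, 0.354 and 0.595) and were taken as pairs, a pairing that rests on these values and the numbers in the titles. At most 1.79% of values were identical between 2 arrays. The procedure was tested on simulated data. The number of arrays limits the precision. Values on all arrays are given for the transcription factors, for genes that passed with or without the block and for the 10 with the largest differences; Lama1, Pdgfra, Apoe, Cubn, Amn and Col1a1 were added after their values were seen. Members and lists were chosen with earlier results of these data known. Alternatives were another filter, pseudocount, normalization, moderation, probe set rule, block or set of arrays.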

Additional observations from a re-analysis of the deposited data

How the results depend on the processing

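Without a block, 2 genes and 3 probe sets passed as higher and 0 and 0 as lower, of 27 and 47 tested, and 675 probe sets passed over the array. Under the replicate block, 5 genes and 7 probe sets were higher, 2 genes and 3 probe sets lower, and 1995 passed over the array; among the brightest probe sets of the genes and lists described, the block changed no call other than those given with the genes. With replicate 3 as a block 1 gene and 1 probe set were lower (Lrp2, adjusted p = 0.0489), and 1117 passed over the array. In replicates 1 and 2 alone 1 gene and 1 probe set were higher, 3 genes and 7 probe sets lower, and 440 passed. With no filter on dim probe sets 0 genes and 1 probe set were higher, this being a probe set of Apoa1 at 2.58 on each DKO array and 2.32 on each wild-type array. With the filter at a log2 intensity of 6, 0 genes and 0 probe sets were higher and 373 passed, which leaves out the fetuin genes. With log2 of the value plus 16, 1 gene and 1 probe set were higher, and with trend and robust moderation 1 gene and 1 probe set were lower (Lrp2, adjusted p = 0.0496). Under quantile normalization 2 genes and 2 probe sets were higher, and the probe set of Hnf4a no longer passed (adjusted p = 0.0503). Leaving out 1 array at a time gave 0 to 4 genes and 0 to 6 probe sets higher, 0 to 3 genes and 0 to 7 probe sets lower, and 290 to 604 over the array. The lowest counts over the array were without DKO replicate 1 (290) and wild-type replicate 2 (319), then DKO replicate 2 (381); the highest count of genes that were higher was without wild-type replicate 1. The median log2 difference was 0.21 without a block and -0.11 in replicates 1 and 2 alone, so its sign changed. Under the other alternatives it ran from 0.10 (without wild-type replicate 3) to 0.48 (without DKO replicate 2). The spread between pairs (SD 0.82) comes from medians of -0.08, -0.08 and 1.34. It thus holds the departure of replicate 3 and is no measure of stability. The interaction with replicate 3 passed for 0 probe sets under the 5 other settings tried, added after seeing the data. The count for replicate 3 as such was 162, and 590 with no filter, 17 with the filter at 6, 0 with the value plus 16, 0 with quantile normalization and 58 with trend and robust moderation; the cause was not tested. Of the single-gene results, 370 kept their side of the threshold, 23 passed and 19 no longer passed; no called result changed direction.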
